A study of Mus musculus with 2 samples.

Results

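The genes of DNA replication (S phase) and of mitosis (G2 and M phase) were followed in single cells from adult mouse liver. The 60 genes were taken by symbol from the 27998 genes listed in the 2 deposited matrices, and all 60 were found in both. They fell into an S list of 27 genes, a G2M list of 31 genes and a pair, Stmn1 and Hmgb2, that was kept out of the phase calls. The cells were CD45+ liver cells of C57BL/6 mice aged 7 to 10 weeks, sorted through 2 gates with 1 library each. The LSM gate held lineage-negative cells bearing Sca-1 and Mac-1, and the other gate held lineage-negative cells bearing CD122 and CD49a (CD122+CD49a+). No treatment or gene alteration is given for either gate. With 1 library per gate there was no replicate check, no p-value is given, and the interval beside each value is an exact 95% interval for counting error alone.

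A dividing cell first copies its DNA and then separates the copies. Replication genes, such as those of the MCM helicase and the enzymes that make nucleotides, are transcribed from late G1 into S phase, largely under E2F transcription factors. Mitotic genes, such as those of the B-type cyclins, the spindle and the kinetochore, are transcribed later, in G2 and M phase, by complexes that read CHR elements and CCAAT boxes. Hematopoietic progenitors include cycling cells, while most mature dendritic cells and resting lymphocytes in tissue are outside the cycle.

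The promoters of the 2 lists carried these elements in different proportions, and 5 windows are printed because they show both arrangements in genes that stood apart between the cell classes. RefSeq promoter windows (GRCm38.p6, 250 bases before to 50 bases after a gene's start, 300 bases) were held for 50 of the 60 genes, in 53 windows. The letters searched on both strands were TTTCGCGC, TTTGGCGC, TTTGCCGC and TTTCCCGC (E2F-like), TTTGAA and TTCGAA (CHR), and CCAAT (the CCAAT box). Capitals mark a match on either strand, and adjoining or overlapping matches run together. Mcm6 (chr1:128359656-128359955, minus strand) and Mcm3 (chr1:20820263-20820562, minus strand) encode helicase subunits. Ube2c (chr2:164769679-164769978, plus strand), the ubiquitin-conjugating enzyme of the anaphase-promoting complex, Ccnb2 (chr9:70421505-70421804, minus strand), a B-type cyclin, and Cdk1 (chr10:69352863-69353162, minus strand), the mitotic kinase, belong to the G2M list.
Mcm6: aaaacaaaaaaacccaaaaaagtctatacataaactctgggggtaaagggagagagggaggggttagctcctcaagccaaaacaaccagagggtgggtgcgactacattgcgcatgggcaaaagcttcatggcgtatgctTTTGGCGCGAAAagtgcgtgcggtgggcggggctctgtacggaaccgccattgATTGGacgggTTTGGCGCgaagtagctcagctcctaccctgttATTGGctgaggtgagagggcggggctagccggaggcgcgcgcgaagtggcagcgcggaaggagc
Mcm3: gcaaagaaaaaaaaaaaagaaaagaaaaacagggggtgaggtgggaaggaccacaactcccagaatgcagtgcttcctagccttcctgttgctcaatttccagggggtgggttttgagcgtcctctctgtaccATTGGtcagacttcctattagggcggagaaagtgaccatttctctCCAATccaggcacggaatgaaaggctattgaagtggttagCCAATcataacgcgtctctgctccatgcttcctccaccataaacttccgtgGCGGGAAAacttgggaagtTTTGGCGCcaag
Ube2c: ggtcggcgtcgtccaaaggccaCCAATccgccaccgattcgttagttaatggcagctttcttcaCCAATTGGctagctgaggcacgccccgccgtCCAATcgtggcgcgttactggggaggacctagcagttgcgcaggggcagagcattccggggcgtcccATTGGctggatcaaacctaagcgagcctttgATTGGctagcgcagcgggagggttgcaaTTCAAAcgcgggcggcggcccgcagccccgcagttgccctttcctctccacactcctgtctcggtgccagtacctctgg
Ccnb2: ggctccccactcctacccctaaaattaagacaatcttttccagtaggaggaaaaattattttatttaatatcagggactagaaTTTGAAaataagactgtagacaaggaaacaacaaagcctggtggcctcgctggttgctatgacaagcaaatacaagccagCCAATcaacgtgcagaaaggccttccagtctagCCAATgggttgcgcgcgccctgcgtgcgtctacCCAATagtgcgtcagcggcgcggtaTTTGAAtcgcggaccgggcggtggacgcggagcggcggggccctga
Cdk1: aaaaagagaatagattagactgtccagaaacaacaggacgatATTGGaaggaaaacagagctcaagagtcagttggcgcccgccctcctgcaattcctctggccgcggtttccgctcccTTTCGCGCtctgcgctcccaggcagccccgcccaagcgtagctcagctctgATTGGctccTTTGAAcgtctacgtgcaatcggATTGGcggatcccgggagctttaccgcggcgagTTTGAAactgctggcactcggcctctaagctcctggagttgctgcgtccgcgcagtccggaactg

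E2F-like letters were in 11 of the 26 S-list windows (42.3%), in 1 of the 26 G2M-list windows (3.85%), that of Cdk1, and in 2.27% of all 32851 promoter windows. CHR letters were in 20 of the 26 G2M-list windows (76.9%), in 4 of the 26 S-list windows (15.4%) and in 19.2% of all windows. The CCAAT box was in 65.4% of S-list and 69.2% of G2M-list windows, beside 37.4% of all windows, so this element was frequent in both lists. A CHR match and a CCAAT box together were in 16 G2M-list windows (61.5%), 3 S-list windows (11.5%) and 7.53% of all windows. The 29 CHR matches of G2M-list windows lay at a median of 3 bases after the start, and the 16 E2F-like matches of S-list windows at a median of 88.5 bases before it. Mean GC content was 58.9% and 59.2% in the S-list and G2M-list windows and 53.8% in all windows, and 2 matches of different elements overlapped. A match describes the letters of the window and does not show that a factor binds there.

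Of 3133 LSM barcodes (16226070 unique molecular identifiers, UMIs), 3074 had at least 500 detected genes, with a median of 5100 UMIs. Of 1655 CD122+CD49a+ barcodes (2632303 UMIs), 1257 passed, with a median of 1461 UMIs. The libraries shared 2 barcodes. The 60 genes took 29211 UMIs (0.181% of all UMIs) in the LSM cells and 4986 (0.212%) in the CD122+CD49a+ cells, and none was at 0 in either library. The median S-list gene had 274 LSM and 52 CD122+CD49a+ UMIs, and the median G2M-list gene had 110 and 40. The rarest were Anln with 15 LSM UMIs and Kif2c with 10 CD122+CD49a+ UMIs, so single mitotic genes were often near the limit of these libraries.

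Each cell was put in the class with the most different markers detected out of 15 lists of 6 genes, none of them a cell cycle gene. The LSM library gave 480 progenitor-like cells, 151 cells like type 1 conventional dendritic cells (cDC1-like), 477 Cd209a dendritic-like cells, 74 plasma cell-like cells and 86 lymphocyte-like cells. The CD122+CD49a+ library gave 103 cDC1-like, 103 Cd209a dendritic-like and 728 lymphocyte-like cells. It gave only 6 progenitor-like cells, all without a Cd34 UMI, and they were not described further. Among the LSM progenitor-like cells, Cd34 had a UMI in 70.8%, Flt3 in 67.7%, Kit in 53.3% and Hlf in 22.3%, so not every cell of the class showed Cd34. Of the plasma cell-like cells, 98.7% had a Cd79a UMI and 97.3% a Cd79b UMI, which are B lineage genes, and 0 of 74 had an Ms4a1 or a Pax5 UMI. Il2rb, which encodes CD122, had a UMI in 3.49% of LSM and 50.3% of CD122+CD49a+ lymphocyte-like cells. In LSM, 131 cells tied between lists and 744 had no class. In CD122+CD49a+ these were 17 and 232.

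To compare cells of unequal depth, every cell was thinned to 1000 UMIs, which left out 22 LSM and 218 CD122+CD49a+ cells (17.3% of the latter). A cell was called S with at least 3 S-list UMIs and more of them than G2M-list UMIs, and called G2M with at least 3 G2M-list UMIs and no fewer than S-list UMIs. In LSM, 153 cells were called S and 53 G2M, together 6.75% of 3052 cells (interval 5.89 to 7.70%). In CD122+CD49a+, 40 were called S and 42 G2M, together 7.89% of 1039 cells (6.33 to 9.70%). Many cells lay near the limit, which makes a call a range of a score and not a cell type. A further 197 LSM and 66 CD122+CD49a+ cells had 2 UMIs in the higher list, and 83 and 20 of the called cells had 3. Before thinning, called cells had a median of 8074 UMIs against 4988 for uncalled LSM cells, and 3064 against 1609 in CD122+CD49a+, and the part of this depth difference in the calls was not tested.

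Progenitor-like cells held the highest share of S-called cells among the 5 described classes in LSM, 73 of 480 cells or 15.2% (12.1 to 18.7%). A further 21 cells (4.38%, 2.73 to 6.61%) were called G2M. These 94 cells were 45.6% of all called LSM cells, although the class was 15.7% of the thinned cells. The cDC1-like class followed with 13 of 151 cells called S (8.61%, 4.66 to 14.3%) and 2 called G2M (1.32%, 0.161 to 4.70%). Its S interval overlapped that of the progenitor-like class, and 10 of its 15 called cells stood at the limit of 3 UMIs.

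In the other LSM classes few cells were called. Of 477 Cd209a dendritic-like cells, 6 were called S (1.26%, 0.463 to 2.72%) and 0 G2M. The count of 0 allows a share of up to 0.629% by a floor of 3 cells and 0.770% by the exact interval. None of the 74 plasma cell-like cells was called in either phase, which allows up to 4.05% by the floor and 4.86% by the exact interval. Of 84 lymphocyte-like cells, 2 were called S (2.38%, 0.290 to 8.34%) and 1 G2M (1.19%, 0.0301 to 6.46%). As a background, 2 of 324 nonclassical monocyte-like cells were called (0.617%, 0.0748 to 2.21%) and 0 of 189 mature dendritic-like cells, classes that are known as mostly outside the cycle. The raw median depth was 2402 UMIs in the monocyte-like and 5438 in the progenitor-like class. The Cd209a dendritic-like, plasma cell-like and lymphocyte-like shares had intervals that overlapped this background.

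In the CD122+CD49a+ library, mitotic calls were as frequent as S calls. Of 592 lymphocyte-like cells, 24 were called S (4.05%, 2.61 to 5.97%) and 26 G2M (4.39%, 2.89 to 6.37%), and these 50 cells were 61.0% of the called cells, close to the 57.0% of thinned cells that the class held. Of 103 cDC1-like cells, 6 were called S (5.83%, 2.17 to 12.3%) and 7 G2M (6.80%, 2.78 to 13.5%). Of 101 Cd209a dendritic-like cells, 2 were called S (1.98%, 0.241 to 6.97%) and 3 G2M (2.97%, 0.617 to 8.44%). No cell was called among 25 nonclassical monocyte-like cells, so this library holds no tight background. This allows up to 12% by the floor of 3 cells and 13.7% by the exact interval. The class sizes follow the sort, and the shares are of cells that passed each gate.

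**Figure D1:**
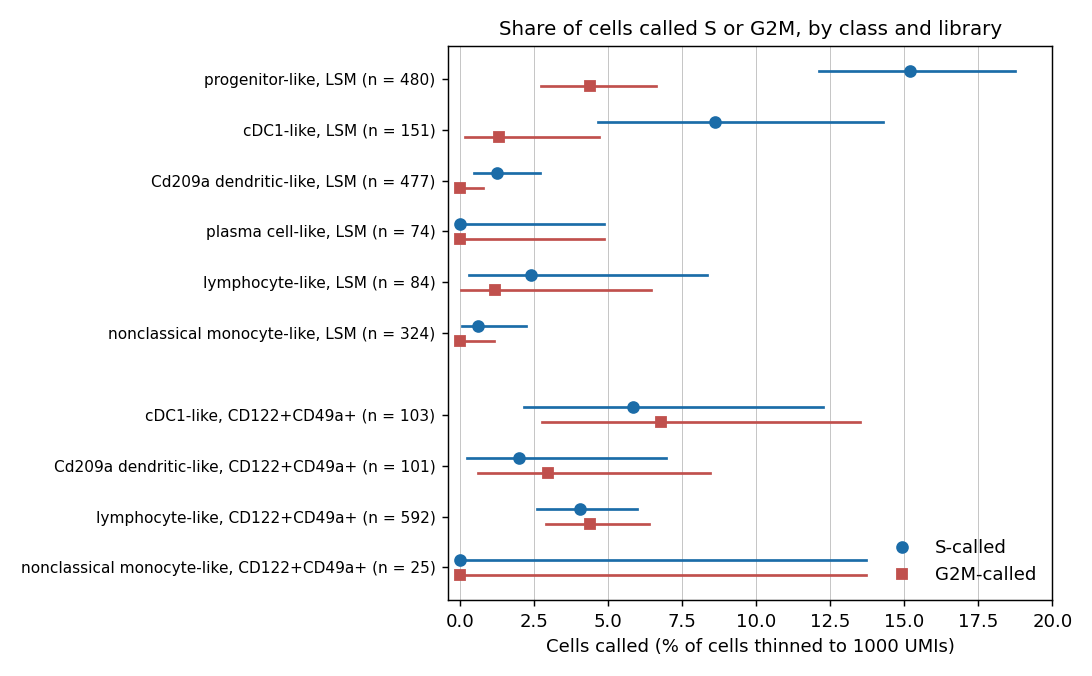
Share of cells called S (circles) or G2M (squares) in percent of cells thinned to 1000 UMIs, by class and library, with exact 95% intervals for counting error as lines and the number of cells in brackets. The LSM progenitor-like class lies highest for S at 15.2%, and the highest G2M shares are those of the CD122+CD49a+ cDC1-like (6.80%) and lymphocyte-like (4.39%) and the LSM progenitor-like (4.38%) classes.

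Without thinning the order of the classes changed. The called share was then 57.7% in LSM progenitor-like and 64.2% in LSM cDC1-like cells, whose median depth was 8050 UMIs. It was 20.1% in Cd209a dendritic-like, 33.8% in plasma cell-like, 14.0% in lymphocyte-like and 9.17% in nonclassical monocyte-like LSM cells, with 11.7%, 25.2% and 9.71% in the lymphocyte-like, cDC1-like and Cd209a dendritic-like cells of CD122+CD49a+. Asking for 5 UMIs instead of 3 lowered the S share to 5.21% in the progenitor-like and 0.662% in the cDC1-like LSM class. All but 1 of the 13 S-called cDC1-like cells held 3 or 4 S-list UMIs.

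The UMIs of both lists were concentrated in the called cells to a different degree. In the progenitor-like class, S-called cells held 54.5% of the thinned S-list UMIs, with a median of 4 UMIs from 4 different genes per called cell. The G2M-called cells held 58.2% of the G2M-list UMIs, with a median of 7 UMIs from 5 different genes and up to 19 UMIs in a cell. In LSM Cd209a dendritic-like cells, 71.3% of cells had no UMI of either list, against 38.3% of progenitor-like cells. In CD122+CD49a+ Cd209a dendritic-like cells, the 3 G2M-called cells held 35 of 43 G2M-list UMIs (81.4%), and a single cell held 18. The lists also ran together in some cells: 14 progenitor-like and 13 CD122+CD49a+ lymphocyte-like cells reached 3 UMIs of both.

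**Figure D2:**
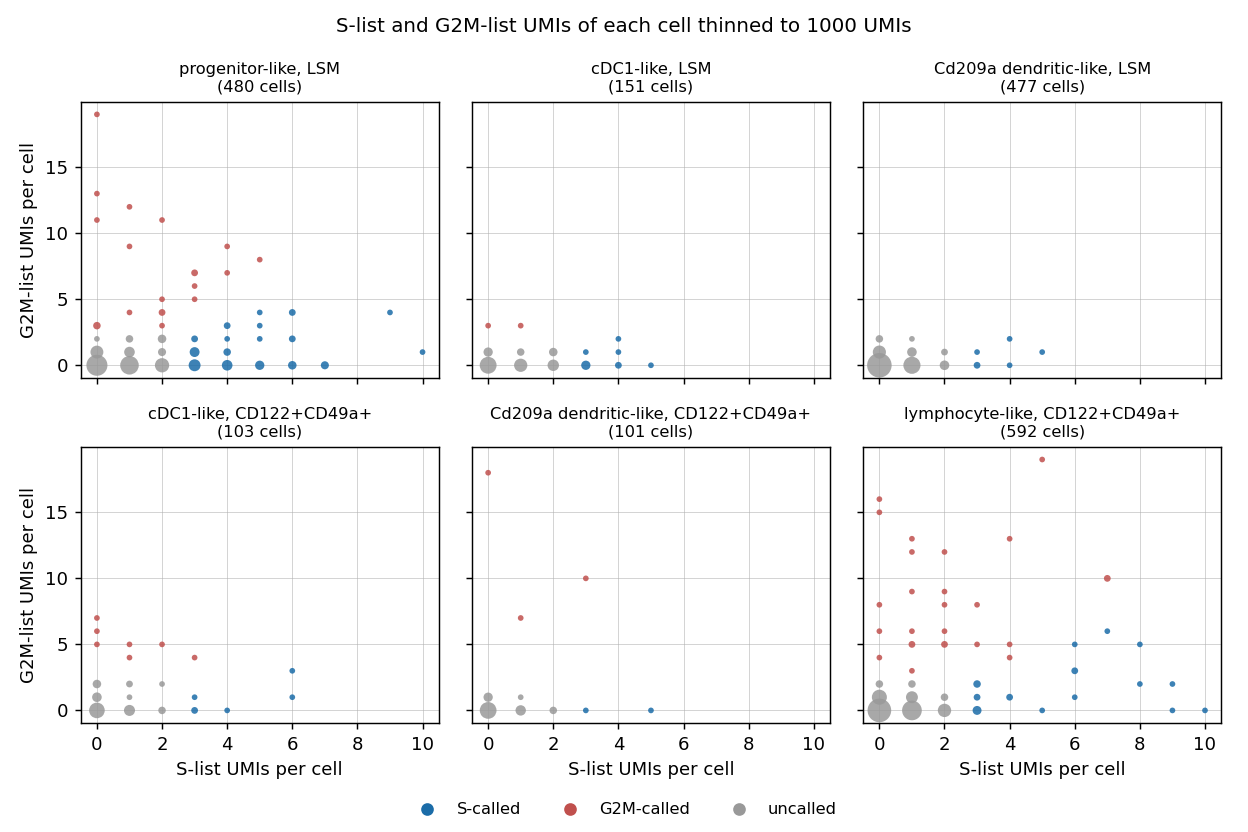
S-list UMIs (horizontal axis) against G2M-list UMIs (vertical axis) of each cell thinned to 1000 UMIs in 6 class and library combinations, with the point area growing with the square root of the number of cells. The origin holds 38.3% of progenitor-like and 49.7% of lymphocyte-like cells, and 50.3 to 73.3% of cells in the dendritic-like panels. S-called cells run along the horizontal axis and G2M-called cells rise to 19 UMIs in the progenitor-like and lymphocyte-like panels. The LSM dendritic panels hold no point above 3 G2M-list UMIs.

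Levels are in CPM, the usual scaling of a class's summed UMIs by its total UMIs. The S list stood at 1349 CPM (1307 to 1391) in LSM progenitor-like cells, 822 CPM in cDC1-like, 647 CPM in lymphocyte-like, 356 CPM in Cd209a dendritic-like and 330.0 CPM in plasma cell-like cells. The nonclassical monocyte-like background was 337 CPM, a level that the Cd209a dendritic-like and plasma cell-like classes did not clearly leave. The G2M list stood at 718 CPM (687 to 749) in progenitor-like cells and at 273, 201, 198 and 115 CPM in plasma cell-like, lymphocyte-like, cDC1-like and Cd209a dendritic-like cells, beside 83.9 CPM in monocyte-like cells. When the called cells were left out, the progenitor-like class fell to 734 CPM for the S list and 171 CPM for the G2M list. The cDC1-like class, without its called cells, still had 684 CPM of the S list, close to the progenitor-like value, and 124 CPM of the G2M list.

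Among the replication genes, the 6 subunits of the MCM helicase, which unwinds DNA at the fork, summed to 426 CPM in progenitor-like cells, 247 CPM in cDC1-like and 84.8 CPM in Cd209a dendritic-like cells. Mcm6 was at 146 CPM in progenitor-like, 72.5 CPM in cDC1-like and 19.8 CPM in Cd209a dendritic-like cells. Mcm2 was at 30.5, 25.2 and 3.82 CPM in the same order, so its cDC1-like level lay near that of progenitor-like cells. The remaining subunits, Mcm3, Mcm4, Mcm5 and Mcm7, were each highest in progenitor-like cells and lowest in Cd209a dendritic-like cells of the 3 classes.

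The origin and fork proteins, among them the sliding clamp Pcna and the clamp loader subunit Rfc2, summed to 447 CPM in progenitor-like, 284 CPM in cDC1-like and 151 CPM in Cd209a dendritic-like cells. Pcna was at 116 CPM in progenitor-like cells but also at 83.9 CPM in monocyte-like cells, and Slbp, which binds histone messenger RNA, at 83.7 against 52.9 CPM, so both were high in cells that were rarely called. Slbp, Rfc2 and the fork protection gene Tipin made up 21.5% of S-list UMIs in progenitor-like cells and 72.4% in basophil or mast cell-like cells, where 2 of 116 cells were called. Without these 3 genes the S share of progenitor-like cells was 10.4%.

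The nucleotide enzymes Tyms (thymidylate synthase), Rrm1 and Rrm2 (ribonucleotide reductase) and Tk1 (thymidine kinase) summed to 124 CPM in progenitor-like cells, 54.4 CPM in cDC1-like and 20.9 CPM in Cd209a dendritic-like cells. Rrm2 was at 33.6 CPM in progenitor-like cells, 6.30 CPM in cDC1-like, 3.82 CPM in Cd209a dendritic-like and 1.15 CPM in monocyte-like cells. Unlike Pcna, it rested on 1 UMI in monocyte-like cells, but it was at 27.3 CPM in plasma cell-like cells, none of which was called after thinning. Tyms went from 56.9 to 37.0, 10.1 and 3.45 CPM in the same order. Rrm1 was at 23.4, 8.67 and 4.87 CPM in progenitor-like, cDC1-like and Cd209a dendritic-like cells, and Tk1 at 10.51, 2.36 and 2.09 CPM. The repair and turnover genes Dtl and Ung summed to 57.9, 22.9 and 11.1 CPM. The chromatin and histone supply genes, with the histone chaperone Nasp and Cdca7, summed to 293, 215 and 88.6 CPM in progenitor-like, cDC1-like and Cd209a dendritic-like cells.

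Among the mitotic genes, the cyclins Ccna2, Ccnb1 and Ccnb2 with Cdk1 summed to 71.5 CPM in progenitor-like cells, 21.3 CPM in cDC1-like and 6.26 CPM in Cd209a dendritic-like cells. Cdk1 alone was at 28.5, 6.30 and 3.82 CPM, Ccnb2 at 19.7, 9.46 and 1.39 CPM and Ccnb1 at 9.15, 1.58 and 0.695 CPM. The anaphase genes Cdc20, an activator of the anaphase-promoting complex, and Ube2c summed to 67.1, 17.3 and 4.87 CPM, with Cdc20 at 14.6, 6.30 and 1.04 CPM. In both gene groups the intervals of the 3 classes did not overlap. In plasma cell-like cells, where no thinned cell was called, Ube2c was still at 42.0 CPM and Cdk1 at 16.8 CPM.

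The chromosome structure genes Top2a (topoisomerase II alpha), Smc4 (a condensin subunit) and Mki67 (the Ki-67 protein that coats mitotic chromosomes) summed to 179 CPM in progenitor-like cells, 46.5 CPM in cDC1-like and 37.2 CPM in Cd209a dendritic-like cells. Mki67 was at 31.5, 4.73 and 2.78 CPM and at 0 in LSM lymphocyte-like and monocyte-like cells. Smc4 was at 85.7 CPM in LSM lymphocyte-like cells (20 UMIs) and at 69.8 CPM in progenitor-like cells (206 UMIs). It was thus not low where mitotic calls were rare. The mitotic kinases and passenger complex, with Aurka, Aurkb and Birc5 (survivin), summed to 147, 35.5 and 21.5 CPM, and the centromere and kinetochore genes, with Cenpa and Cenpf, to 114, 41.0 and 26.8 CPM. Kinesins, among them the spindle motor Kif11 (13.2, 3.15 and 0.695 CPM), summed to 52.2, 15.8 and 9.38 CPM. Aurka, the spindle pole kinase, was at 9.49, 3.15 and 1.39 CPM. The spindle and cytokinesis genes, such as Nusap1 and Tacc3, summed to 86.1, 20.5 and 8.69 CPM, with intervals that did not overlap. For the chromosome structure, mitotic kinase, centromere and kinesin groups the intervals of cDC1-like and Cd209a dendritic-like cells overlapped. Those of progenitor-like cells lay above both.

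**Figure D3:**
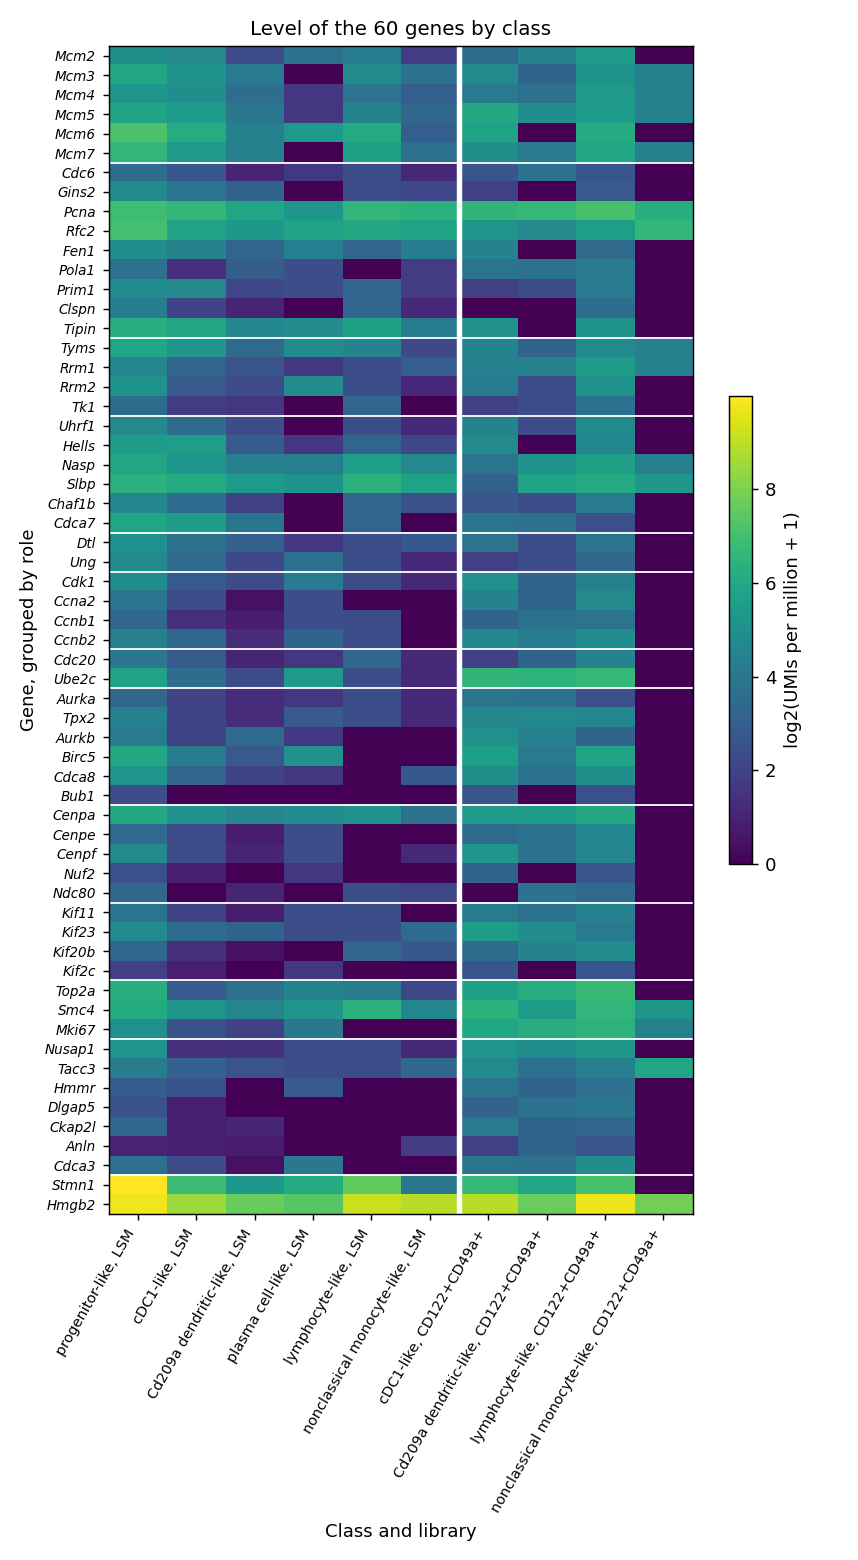
Level of the 60 genes (rows, grouped by role, with white lines between roles) in 10 class and library combinations (columns), as log2(CPM + 1). The progenitor-like column is brightest for most S-list rows, and the mitotic rows are brighter in the CD122+CD49a+ dendritic-like and lymphocyte-like columns than in the LSM columns of the same classes; the last column rests on 34 cells.

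Gene by gene, progenitor-like cells were set against the 2 dendritic-like classes of the same library, with at least 20 UMIs in both classes together and a 2-fold limit. Against Cd209a dendritic-like cells, 51 of the 54 genes past the count minimum were at least 2-fold higher and 0 lower, where 22.1% of all 9243 genes were higher and 7.24% lower. The 6 genes under the minimum were Bub1, Nuf2, Kif2c, Hmmr, Dlgap5 and Anln. A rare gene passes the minimum mainly through the class where it is high. With a minimum of 1 UMI, 56 of all 60 genes were at least 2-fold higher and 0 lower, beside 25.1% of all genes higher. The median log2 ratio was 2.27 for the S list and 3.51 for the G2M list, beside 0.36 over all genes. When the scale was set so that this last median became 0.01, 50 genes were at least 2-fold higher, beside 14.7% of all genes.

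The 5 largest ratios were those of Ccna2 (41.0-fold, 6.96 to 1656), Cdca3 (34.1-fold, 5.74 to 1386), Kif20b (26.3-fold, 4.34 to 1078), Stmn1 (25.6-fold, 21.2 to 31.2) and Cenpf (24.7-fold, 8.14 to 122). Ccna2, Cdca3 and Kif20b each had 1 UMI in Cd209a dendritic-like cells, which their wide intervals show. The 5 smallest were Aurkb (1.74-fold, 1.07 to 2.87), Pola1 (1.90-fold, 1.06 to 3.50), Slbp (1.98-fold, 1.58 to 2.47), Pcna (2.02-fold, 1.67 to 2.44) and Cenpa (2.71-fold, 2.05 to 3.63). Aurkb, Pola1 and Slbp were the 3 genes that stayed under 2-fold. Between these ends, Mcm6 was 7.39-fold (5.60 to 9.92), Rrm2 8.78-fold (4.70 to 18.1), Cdk1 7.45-fold (3.96 to 15.5), Birc5 10.3-fold (6.27 to 18.1), Mki67 11.3-fold (5.52 to 27.04) and Ube2c 13.7-fold (7.47 to 28.1) higher.

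Against cDC1-like cells the S and G2M lists parted. Of 55 genes past the minimum, 38 were at least 2-fold higher and 0 lower, where 24.5% of all 8630 genes were higher and 5.16% lower. The S list gave 12 of 27, with a median log2 ratio of 0.92, and the G2M list 24 of 26, with a median of 1.97, beside 0.37 over all genes. When the scale was set so that this last median became 0.03, the counts were 6 of the S list, 20 of the G2M list and 27 of all 55, beside 17.4% of all genes higher, so the S list was then near the share of genes at large. The DNA helicase-like gene Hells (0.955-fold, 0.697 to 1.32), the primase subunit Prim1 (1.12-fold, 0.734 to 1.73), Mcm4 (1.19-fold, 0.819 to 1.76), Pcna (1.2-fold, 0.973 to 1.49) and Mcm2 (1.21-fold, 0.800 to 1.87) had the smallest ratios, each with an interval that included 1. Nusap1 (21.9-fold, 5.92 to 184), Top2a (12.4-fold, 6.17 to 29.0), Ckap2l (12.04-fold, 1.99 to 493), Stmn1 (8.94-fold, 7.57 to 10.7) and Pola1 (7.96-fold, 2.05 to 68.2) had the largest. Mki67 was 6.67-fold (2.95 to 18.6) and Cdk1 4.52-fold (2.19 to 10.8) higher in progenitor-like cells.

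**Figure D4:**
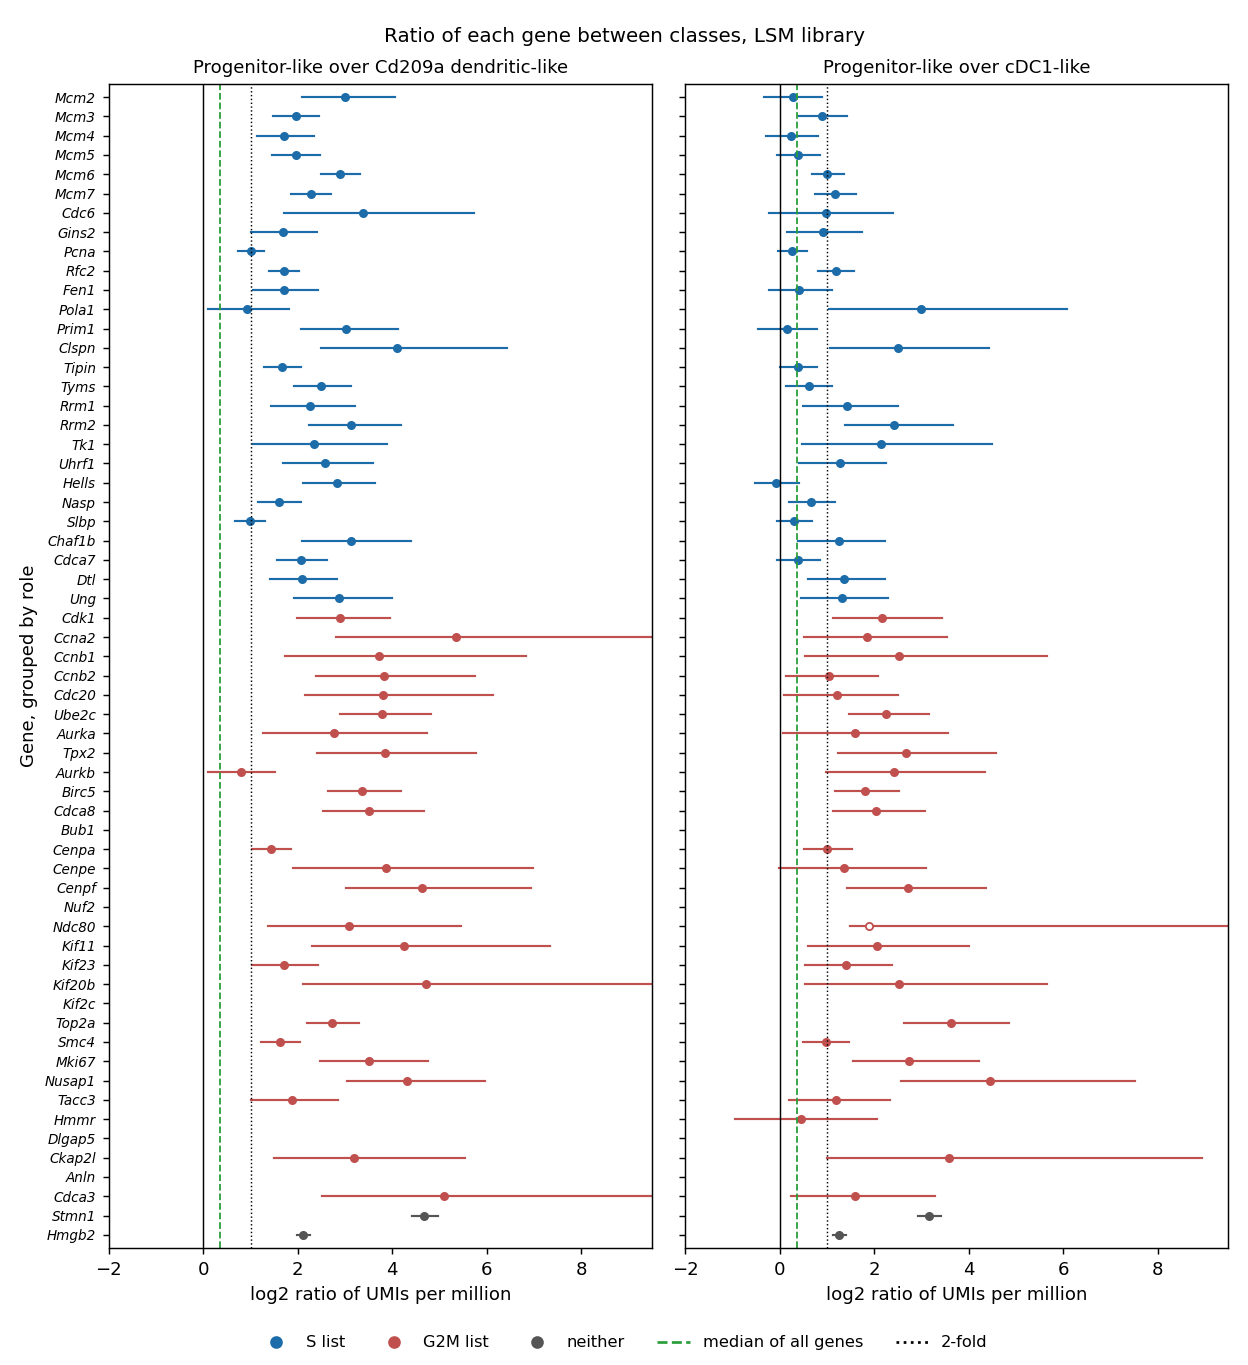
Log2 ratio of the CPM of each gene in LSM progenitor-like cells over Cd209a dendritic-like cells (left) and over cDC1-like cells (right), with exact 95% intervals for counting error as lines; genes without a point were under 20 UMIs, an open point is a lower bound, and some intervals run past the right edge. On the left 51 genes lie past 2-fold, and on the right most S-list points lie left of most G2M-list points.

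Genes of the cycle outside the 60 were followed from 5 lists of 79 genes. Against Cd209a dendritic-like cells, 15 of 17 other S-phase genes past the minimum and 15 of 19 other G2M genes were at least 2-fold higher in progenitor-like cells, and 0 were lower. Of a list of 12 abundant genes, made up of 10 genes of histones and chromatin and the tubulins Tubb5 and Tuba1b, 9 were higher, Tubb5 (2.09-fold) among them. The G1 cyclins and kinases split into 4 higher and 2 lower of 8, and the inhibitors into 1 higher and 1 lower of 6. The largest ratios were those of Kif22 (35.1-fold, 5.91 to 1425), Pbk (28.3-fold, 7.49 to 239) and Spc24 (23.6-fold, 9.84 to 74.0). The smallest were Ccnd1 (0.312-fold, 0.264 to 0.367), Cdkn1a (0.362-fold, 0.295 to 0.441) and Ccnd3 (0.490-fold, 0.425 to 0.564), 2 D-type cyclins of G1 and the p21 inhibitor. The D-type cyclin Ccnd2 went the other way, at 228 CPM in progenitor-like, 62.2 CPM in cDC1-like and 80.6 CPM in Cd209a dendritic-like cells. Against cDC1-like cells the largest were Prc1 (20.2-fold, 3.46 to 815), Incenp (15.1-fold, 2.53 to 611) and Pbk (12.5-fold, 3.30 to 105), and the smallest Ccnd1 (0.283-fold, 0.235 to 0.340), Ccnd3 (0.610-fold, 0.510 to 0.730) and Pttg1 (0.662-fold, 0.493 to 0.892).

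Within the progenitor-like class the summed G2M-list level differed between subsets set by marker UMIs. The 21 G2M-called cells held 58.2% of the thinned G2M-list UMIs of the class, so the level of a subset can rest on few cells. The intervals of these levels count UMIs and do not cover the spread between cells. Cells with more stem markers than lymphoid markers (36 cells) had 4 S calls, 0 G2M calls and a G2M-list level of 146 CPM (97.0 to 211). The 0 G2M calls allow up to 8.33% by the floor of 3 cells and 9.74% by the exact interval. Cells with more lymphoid markers (387 cells) had 59 S calls (15.2%), 19 G2M calls (4.91%) and 782 CPM. The G2M share of 4.91% lay under the 8.33% that 0 of 36 cells allows. Cells with a UMI of Dntt, the lymphoid terminal transferase, had 1034 CPM of the G2M list against 509 CPM in cells without it, while their S shares were 15.3% and 15.2%. Their G2M-called shares, 5.26% (2.55 to 9.47%) and 3.79% (1.91 to 6.69%), overlapped. A Flt3 UMI went with 861 against 375 CPM, with 19 of 325 against 2 of 155 cells called G2M. A Cd34 UMI went with 869 against 355 CPM, with 19 of 340 against 2 of 140 cells called G2M. In both splits the intervals of the G2M-called shares overlapped. The stem and progenitor markers did not all go one way: the G2M list was at 792 against 657 CPM with and without a Meis1 UMI, 649 against 805 CPM for Kit, and 535 against 764 CPM for Hlf. The called share was 22.1% (17.8 to 26.8%) with a Cd34 UMI and 13.6% (8.37 to 20.4%) without.

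Median raw depth was 5158 UMIs in the stem-marker and 5626 in the lymphoid-marker subset, and 5376 with and 5997 without a Cd34 UMI. Of the 480 progenitor-like cells, 103 also held at least 2 markers of another list, and 24 of the 94 called cells were among them. Leaving out the 79 LSM barcodes with the highest doublet scores removed 9 of the 206 called cells.

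In the CD122+CD49a+ library the lymphocyte-like cells were set against the Cd209a dendritic-like cells. Of 39 genes past the minimum, 19 were at least 2-fold higher and 0 lower, where 22.6% of all genes were higher and 12.2% lower. They were 10 of 17 S-list and 7 of 20 G2M-list genes, with Stmn1 and Hmgb2. Rare genes pass the minimum mainly through the class where they are high or that holds more UMIs. The lymphocyte-like class held 1116767 UMIs and the Cd209a dendritic-like class 242755. With a minimum of 1 UMI and counts of 0 set to the floor, 24 of 60 were higher and 7 lower. Of all genes, 14.5% and 32.7% then were. Rrm2 (8.26-fold, 1.40 to 335), Uhrf1 (6.30-fold, 1.04 to 257), Mcm6 (at least 5.65-fold, 78 against 0 UMIs with a floor of 3 counts over the class), Hmgb2 (4.16-fold, 3.13 to 5.65) and Mcm3 (4.02-fold, 1.04 to 34.4) had the largest ratios. The smallest were those of Kif23 (0.559-fold, 0.223 to 1.58), Tpx2 (0.942-fold, 0.379 to 2.80), Ube2c (1.14-fold, 0.709 to 1.91), Mki67 (1.17-fold, 0.704 to 2.06) and, at the same value, Kif20b and Slbp (1.30-fold). For the mitotic genes of this contrast the Cd209a dendritic-like level came mainly from 3 cells: without called cells the G2M list fell from 659 to 86.2 CPM there, and from 942 to 187 CPM in lymphocyte-like cells.

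The lymphocyte-like cells were also split by receptor genes. Of 112 cells with a Cd8 UMI, 11 were called (9.82%, 5.01 to 16.9%), and of 467 with a Cd3 but no Cd8 UMI, 37 (7.92%, 5.64 to 10.8%), so the shares overlapped. The 13 cells with neither had 2 G2M calls and a G2M-list level of 3116 CPM, too few cells for a comparison.

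The same 3 classes were then set side by side between the gates, where gate, library and depth cannot be told apart. The G2M list was lower in LSM in each class: 198 against 819 CPM in cDC1-like, 115 against 659 CPM in Cd209a dendritic-like and 201 against 942 CPM in lymphocyte-like cells. The S list was at 822 against 570 CPM, 356 against 391 CPM and 647 against 904 CPM. The order thus turned only for the cDC1-like class, whose S list was higher in LSM.

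In cDC1-like cells, 31 genes passed the minimum, among them 18 of the S list and 11 of the G2M list. In LSM 5 were at least 2-fold higher, all of the S list, and 11 at least 2-fold lower, 10 of them of the G2M list. Of all genes, 15.5% were higher and 16.4% lower. Rare genes pass the minimum mainly through the class where they are high. With a minimum of 1 UMI and counts of 0 set to the floor, 8 of 59 were higher and 33 lower. Of all genes, 10.0% and 37.0% then were. With a minimum of 50 UMIs, 3 of 16 were higher and 1 lower, beside 16.6% and 10.3% of all genes. Mki67 was 13.0-fold (5.16 to 39.1) higher in CD122+CD49a+ cells, Ube2c 8.25-fold (4.31 to 16.6), Top2a 8.07-fold (3.37 to 21.3), Cdk1 5.10-fold (1.92 to 14.4) and Kif23 4.44-fold (2.03 to 9.95). Prim1 (9.41-fold, 1.57 to 383), Slbp (8.44-fold, 2.79 to 41.7), Cdca7 (3.24-fold, 1.31 to 10.4), Nasp (2.77-fold, 1.10 to 8.91) and Mcm2 (2.35-fold, 0.835 to 9.16) were higher in LSM. Without the cells called after thinning, the G2M list was at 124 CPM in LSM and 353 CPM in CD122+CD49a+ cDC1-like cells. Calls used thinned cells and levels used all UMIs, so dividing cells missed by the calls can remain in these levels. Without thinning, 26 CD122+CD49a+ cDC1-like cells were called instead of 13, and 97 instead of 15 in LSM. Whether the mitotic difference reached beyond dividing cells was therefore not tested.

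In Cd209a dendritic-like cells, 7 of 26 genes past the minimum were at least 2-fold lower in LSM and 0 higher. Of all genes, 27.7% were lower and 10.6% higher, so the count over both lists together was no larger than that of genes at large. The lists parted: 7 of the 8 G2M-list genes past the minimum were lower, and 0 of the 16 S-list genes. A rare gene passes the minimum mainly through the class where it is high. Mki67 was 26.7-fold (11.04 to 70.9) higher in CD122+CD49a+, Ube2c 22.6-fold (10.4 to 52.0), Top2a 6.62-fold (3.57 to 11.9), Kif23 3.46-fold (1.26 to 8.27) and Birc5 2.79-fold (0.683 to 8.55). At the other end, Tipin (at least 1.996-fold, 71 against 0 UMIs), Mcm3 (1.94-fold, 0.507 to 16.5), Dtl (1.86-fold, 0.3 to 76.6), Mcm6 (at least 1.60-fold, 57 against 0 UMIs) and Rfc2 (1.59-fold, 0.708 to 4.42) had the highest LSM ratios. None of these reached the limit as computed, and those of Tipin and Mcm6 are lower bounds. Without called cells the G2M list was at 103 CPM in LSM and 86.2 CPM in CD122+CD49a+, so the order of the list turned when the 5 called cells of the latter and the 6 of LSM were left out.

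In lymphocyte-like cells, 21 of 39 genes past the minimum were at least 2-fold lower in LSM and 0 higher, where 27.4% of all genes were lower and 6.96% higher. They were 7 of 18 S-list and 14 of 19 G2M-list genes. The class held 233392 UMIs in LSM and 1116767 in CD122+CD49a+, so rare genes pass the minimum mainly through the latter. With a minimum of 1 UMI, 26 of 60 were lower and 4 higher, beside 17.4% and 29.6% of all genes. The 4 higher genes had 0 LSM UMIs and stood at the floor. Ube2c was 23.0-fold (4.04 to 916) higher in CD122+CD49a+, Rrm1 10.4-fold (1.79 to 421), Nusap1 8.99-fold (1.53 to 363), Rrm2 7.94-fold (1.34 to 322) and Mki67, with 0 LSM UMIs, at least 6.76-fold. Tipin (1.51-fold, 0.719 to 2.95), Rfc2 (1.41-fold, 0.735 to 2.54), Stmn1 (1.36-fold, 0.948 to 1.92), Slbp (1.17-fold, 0.666 to 1.94) and Mcm6 (0.981-fold, 0.535 to 1.70) were at the other end. The 21 lower genes had 0 to 5 UMIs each in the 86 LSM cells. With each cell weighted equally, 14 of the 39 genes were lower, 7 of them of the G2M list, beside 29.8% of all genes. Cdk1, Cdc20, Cdca3, Cdca8 and Tacc3 then turned in sign.

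Cycle genes outside the 60 took part in these contrasts too, and none of them set a call. Between lymphocyte-like and Cd209a dendritic-like cells of CD122+CD49a+, Ccnd2 (9.18-fold, 5.43 to 16.9) and Lmnb1 (6.85-fold, 1.82 to 57.8) were among the highest, and Ccnd1 (0.0227-fold, 0.00879 to 0.0494), Cdkn1a (0.0966-fold, 0.0363 to 0.234) and Bub1b (0.696-fold, 0.244 to 2.43) lowest. Between gates, Cdkn2d, an inhibitor of the G1 kinases, had the highest LSM ratio among the pathway genes past the count minimum in all 3 classes, with 15.9-fold (2.73 to 639), 3.81-fold (1.99 to 8.38) and 2.51-fold (1.58 to 3.91) in cDC1-like, Cd209a dendritic-like and lymphocyte-like cells. The histone gene Hist1h1b was among the 3 lowest in all 3 classes, with 0.147-fold, 0.299-fold and 0.0886-fold. Cdkn1a (at least 4.71-fold) and Gmnn (4.51-fold) were also high and Spc24 (0.168-fold) and Hist1h2ap (0.311-fold) low in LSM cDC1-like cells. In Cd209a dendritic-like cells Lmnb1 (3.12-fold) and Cdk4 (2.50-fold) were high and G2e3 (0.193-fold) and Rbl2 (0.253-fold) low, and in lymphocyte-like cells Rpa2 (1.91-fold) and H2afz (1.81-fold) were high and Rbl2 (0.143-fold) and Prc1 (0.145-fold) low.

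The calls were compared with those same outside lists inside a class. In progenitor-like cells, the 20 other S-phase genes had 1.73 UMIs per S-called cell (1.44 to 2.05), 0.809 per G2M-called cell (0.472 to 1.30) and 0.288 per uncalled cell. The 30 other G2M genes had 0.973 UMIs per S-called cell (0.760 to 1.23), 3.52 per G2M-called cell (2.77 to 4.42) and 0.267 per uncalled cell. The 2 kinds of call therefore also differed in genes that did not define them. The G1 cyclins and kinases did not differ beyond their intervals, with 0.726, 0.571 and 0.718 UMIs per cell. The inhibitors had 0.164 (0.0849 to 0.287), 0.476 (0.228 to 0.876) and 0.347 UMIs per cell.

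Chosen after their values were seen, Dut, the dUTPase, had a UMI in 47.9% (36.1 to 59.96%) of S-called, 28.6% (11.3 to 52.2%) of G2M-called and 10.4% of uncalled progenitor-like cells, and Cks2, a subunit of the mitotic kinase complex, in 15.1% (7.77 to 25.4%), 66.7% (43.0 to 85.4%) and 5.70%. The list of histone, chromatin and tubulin genes had 7.42 UMIs per S-called cell, 21.0 per G2M-called cell (19.1 to 23.1) and 3.12 per uncalled cell, and Hist1h2ap, a replication-dependent histone gene, was highest in the G2M-called cells, with a UMI in 81.0% (58.1 to 94.6%) of them against 26.0% (16.4 to 37.6%) of S-called cells. Histone genes have near-identical copies, so single histone genes are uncertain.

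The same pattern held in CD122+CD49a+ lymphocyte-like cells for the G2M genes, with 1.08 (0.708 to 1.59), 4.19 (3.44 to 5.06) and 0.255 UMIs per S-called, G2M-called and uncalled cell. Other S-phase genes had 1.54 (1.08 to 2.12), 1.27 (0.874 to 1.78) and 0.271 UMIs per cell, so S-called and G2M-called cells were not separated by them. In LSM cDC1-like cells the 13 S-called cells had 0.615 UMIs of the other S-phase genes (0.266 to 1.21) against 0.235 in uncalled cells, a smaller excess than in progenitor-like cells, and 0.462 UMIs of the other G2M genes (0.169 to 1.005) against 0.316. The difference between the excess in the 2 classes was not tested.

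**Figure D5:**
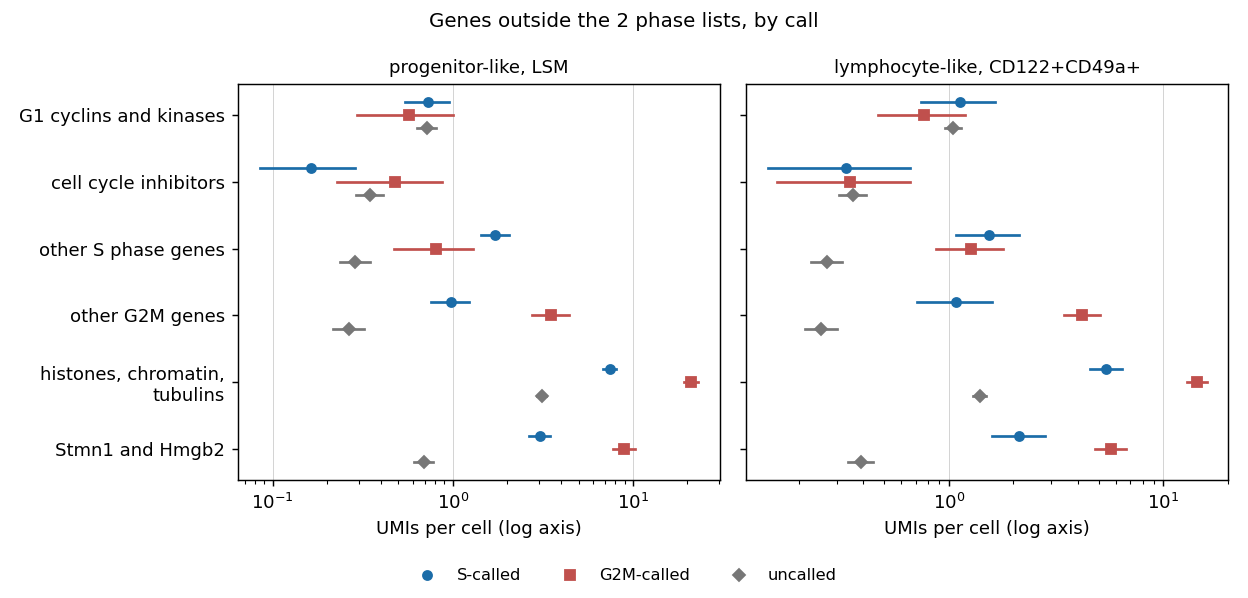
UMIs per thinned cell (log axis) of 5 gene lists outside the S and G2M lists (the histone and chromatin list also holds 2 tubulins) and of Stmn1 with Hmgb2, in S-called (circles), G2M-called (squares) and uncalled (diamonds) cells of the LSM progenitor-like (left) and CD122+CD49a+ lymphocyte-like (right) classes, with exact 95% intervals as lines. Other G2M genes are highest in G2M-called cells at 3.52 and 4.19 UMIs per cell, while the G1 cyclins and kinases overlap between calls.

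Stmn1, which destabilises microtubules, and Hmgb2, a chromatin protein, set no call but were the most abundant of the 60 genes, with 5165 and 7395 LSM UMIs. Stmn1 was at 1015 CPM in progenitor-like cells, 113 CPM in cDC1-like, 39.6 CPM in Cd209a dendritic-like and 14.9 CPM in monocyte-like cells. Hmgb2 was at 868, 361, 200.2 and 479 CPM, so it was high in monocyte-like cells that were almost never called. Together they had 3.04 UMIs per S-called, 8.95 per G2M-called and 0.692 per uncalled progenitor-like cell. Adding both genes to the G2M list moved the G2M share of progenitor-like cells to 16.2% and their S share to 9.17%.

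Among single genes, Ube2c had a UMI in 49.1% of the G2M-called LSM cells, 0% of the S-called and 0.351% of the uncalled cells, and in 42.9%, 2.50% and 0.418% of those of CD122+CD49a+. Mcm6 had a UMI in 34.6% of the S-called LSM cells, 13.2% of the G2M-called and 2.46% of the uncalled cells. Rrm2 was more frequent in G2M-called (13.2%) than in S-called (6.54%) LSM cells although it is in the S list, and Top2a reached 6.54% of S-called and 45.3% of G2M-called cells. A UMI was most frequent in uncalled LSM cells for Hmgb2 (22.8%), Stmn1 (8.15%), Pcna (5.06%), Rfc2 (5.03%) and Slbp (4.32%). These shares describe the calls that the genes themselves set, apart from Stmn1 and Hmgb2.

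Across the 14 classes with at least 20 cells, the genes whose log2(CPM + 10) followed Mki67 most closely were Kcnq1ot1 (Pearson r = 0.915), Golga4 (0.914), the spindle gene Tpx2 (0.891), Whsc1 (0.877) and Ints1 (0.874), out of 7634 genes with at least 100 UMIs. Tpx2 was the only one of the 60 genes among them. The minimum left out Dlgap5 (r = 0.896, 41 UMIs), Cenpe (0.891, 82 UMIs) and Hmmr (0.876, 57 UMIs), which lay above Ints1. The other genes of the 60 under the minimum lay below it. Within the 10 LSM classes r was 0.912, 0.839, 0.915, 0.718 and 0.718, and within the 4 CD122+CD49a+ classes 0.939, 0.786, 0.970, 0.997 and 0.843. The classes share 2 libraries, their depth and their free RNA, so these values only describe the profile.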

How the data were processed

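The deposited matrices hold raw UMI counts per gene and barcode, written by matrix software 3.0.1 per the file headers. The submitters' processing notes name STAR, Seurat 2.3.0 and the GRCm38 build, and for the choice of barcodes the steps are not stated in the labels or headers. Barcodes with at least 500 genes were kept. Cells were thinned to 1000 UMIs (seed 1) for calls and shares, while levels and ratios used all UMIs. A class needed 2 different markers of its list, and the plasma cell-like class also 20 Jchain UMIs. Shares carry Clopper-Pearson intervals, levels exact Poisson intervals, and ratios exact conditional intervals, all at 95%. A count of 0 was set to a floor of 3 counts over the class for ratios and limits.

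The members, gene lists and contrasts were chosen with earlier results of these data known. Genes were named by a rule: a set of core members, the 5 largest and 5 smallest ratios among members per contrast, and the 3 largest and 3 smallest among the 79 pathway genes, with exceptions said in the text; a pathway gene that this rule names is not reported here. Scrublet, through scanpy, marked 10 (0.319%) and 4 (0.242%) barcodes as doublets, too few to trust, so doublets were kept and the 79 and 22 highest scores were left out as an alternative. The scripts were tested on simulated data. Promoter windows came from RefSeq (GRCm38.p6) by symbol. Python 3.11.15, numpy 2.4.6, scipy 1.17.1, pandas 2.3.3, scanpy 1.11.5 and matplotlib 3.10.9 were used. Alternatives covered the thinning depth, the call limit, the lists, the class rule, the scaling, the count minimum and doublets.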

Additional observations from a re-analysis of the deposited data

Results flagged for a closer look

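Called cells also appeared outside the 5 described classes. Each share below is above the limit that a count of 0 would allow in the same cells, which says only that more than 3 cells were called. In LSM, 18 of 244 plasmacytoid dendritic-like cells (7.38%, 4.43 to 11.4%, limit 1.23%) and 7 of 48 Kupffer cell-like cells (14.6%, 6.07 to 27.8%, limit 6.25%) were called. Of the LSM cells whose markers tied between lists, 22 of 131 were called (16.8%, 10.8 to 24.3%, limit 2.29%), and of those with no class, 37 of 730 (5.07%, 3.59 to 6.92%, limit 0.411%). In CD122+CD49a+, 10 of 165 cells with no class were called (6.06%, 2.94 to 10.9%, limit 1.82%).

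The ratio of the S-list level to the G2M-list level lay on opposite sides of 1 in the gates for 3 classes. It was 4.16 in LSM and 0.696 in CD122+CD49a+ for cDC1-like cells, 3.11 and 0.594 for Cd209a dendritic-like cells, and 3.21 and 0.959 for lymphocyte-like cells. In CD122+CD49a+ lymphocyte-like cells the intervals of the S list (849 to 961 CPM) and the G2M list (886 to 1001 CPM) overlapped. In CD122+CD49a+ Cd209a dendritic-like cells, 3 cells held 81.4% of the thinned G2M-list UMIs, and without called cells the lists stood at 254 and 86.2 CPM, with the S list higher. With 1 library per gate these differences were not tested.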

How the results depend on the processing

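Of the S shares, G2M shares and member counts under alternatives, 183 values stayed within their counting interval or within 1.5 times the main count, and 57 did not. Of the shares of both calls together, 62 stayed within their counting interval and 28 did not. The cause was not tested. Thinned to 1500 UMIs, the S share was 20.6% in LSM progenitor-like, 14.6% in LSM cDC1-like and 2.75% in LSM Cd209a dendritic-like cells. The G2M share was 0% in LSM lymphocyte-like cells, of 71 cells against 84 in the main thinning. In CD122+CD49a+ lymphocyte-like cells the S share was 11.8% and the G2M share 9.35%, of 246 cells against 592 in the main thinning. Cells with fewer than 1500 UMIs were left out. In the main thinning, called cells of this class had a median of 2442 raw UMIs, against 1382 in uncalled cells. Its shares at the 2 depths are therefore of unlike sets of cells, and their difference was not tested. Without thinning, S and G2M shares were 50.4% and 7.29% in progenitor-like, 18.0% and 2.10% in Cd209a dendritic-like, 28.4% and 5.41% in plasma cell-like and 14.0% and 0% in lymphocyte-like LSM cells. The S share was then 59.6% in LSM cDC1-like and 7.56% in CD122+CD49a+ lymphocyte-like cells, and the G2M share 13.6% in CD122+CD49a+ cDC1-like cells. With 2 UMIs for a call, S shares in LSM were 24.2% (progenitor-like), 22.5% (cDC1-like), 3.35% (Cd209a dendritic-like), 5.41% (plasma cell-like) and 9.52% (lymphocyte-like), and 9.63% in CD122+CD49a+ lymphocyte-like cells. The G2M share was then 0.839% in LSM Cd209a dendritic-like and 14.6% in CD122+CD49a+ cDC1-like cells. With 5 UMIs, S shares in LSM were 5.21%, 0.662%, 0.21% and 0% in progenitor-like, cDC1-like, Cd209a dendritic-like and lymphocyte-like cells, G2M shares 0% in LSM cDC1-like and lymphocyte-like cells, and S shares 1.94% and 1.86% in CD122+CD49a+ cDC1-like and lymphocyte-like cells. With Stmn1 and Hmgb2 in the G2M list, progenitor-like cells had 9.17% S and 16.2% G2M, and G2M shares were 5.30% (cDC1-like), 1.47% (Cd209a dendritic-like) and 10.7% (lymphocyte-like) in LSM and 8.45% in CD122+CD49a+ lymphocyte-like cells. Asking for 3 markers gave 0% G2M in LSM cDC1-like cells. Of the alternatives chosen after seeing the data, leaving Slbp, Rfc2 and Tipin out of the S list gave 10.4% S in progenitor-like cells, and another seed gave 0% G2M in LSM lymphocyte-like cells.

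For lymphocyte-like over Cd209a dendritic-like cells, 1 of 39 genes was lower by median-ratio scaling, beside 15.4% of all genes. With at least 1 UMI, 7 of 60 were lower, beside 32.7% of all genes. With at least 50 UMIs, 8 of 18 were higher, beside 22.4%. For cDC1-like cells between gates, 8 of 31 were higher in LSM by the mean of per-cell CPM, beside 15.8% of all genes. With at least 1 UMI, 8 of 59 were higher and 33 lower, beside 10.0% and 37.0% of all genes. With at least 50 UMIs, 3 of 16 were higher and 1 lower, beside 16.6% and 10.3%. For Cd209a dendritic-like cells, 3 of 26 were higher by median-ratio scaling, beside 18.85% of all genes. Without the highest doublet scores, 1 of 26 was higher, beside 10.7%. With at least 1 UMI, 31 of 57 were lower, and with at least 50 UMIs, 2 of 12, where 51.2% and 21.1% of all genes were lower. For lymphocyte-like cells, 1 of 39 was higher by per-cell CPM, beside 7.55% of all genes, and 4 of 60 with at least 1 UMI, beside 29.6%. With at least 50 UMIs, 7 of 18 were lower, beside 23.9% of all genes. There, by per-cell CPM, the log2 ratio of LSM over CD122+CD49a+ turned to 0.20 for Cdk1, 0.94 for Cdc20, 0.059 for Cdca3, 0.0020 for Cdca8 and 0.22 for Tacc3. Plasma cell-like cells without markers of another list were not run, since too few remained. Leaving out a replicate was not possible with 1 library per gate. No paired analysis was possible because each gate holds 1 library.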
